A study of Sus scrofa with 8 samples.

Results

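Cytochrome P450 genes are described here as the pig gene annotation that served the libraries of this study defines them. The members are the protein-coding genes whose name is CYP followed by a family number, a subfamily letter and a gene number. This rule gave 38 genes of 30390 in the annotation, of which 20679 are protein-coding and 20674 have a coding sequence. The libraries came from airway submucosal glands (SMG), which lie under the airway epithelium and release fluid, mucins and antimicrobial proteins, dissected from the tracheas of 4 wild-type and 4 CFTR-/- newborn pigs. CFTR is the anion channel lost in cystic fibrosis. Each library holds dissociated cells of the glands and the tissue around them from 1 animal, sequenced from the 3′ ends of the transcripts. The authors assigned reads to genes with an NCBI RefSeq annotation of the Sscrofa11.1 genome that they had edited, the same for all 8 libraries. The data are therefore gene models, with no value per animal and no replicate error, expression of these genes in the glands was not analysed here, and the depth of the libraries is unknown.

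P450 enzymes hold a heme iron that binds oxygen and inserts 1 of its atoms into a substrate. Most are bound to the endoplasmic reticulum and take electrons from P450 reductase, and a few sit in mitochondria and take them from ferredoxin. Families 1, 2 and 3 are best known for oxidizing drugs and other foreign compounds, also in airway epithelium, and the others for fatty acids, steroids, bile acids, vitamin D or retinoic acid. The heme iron is held by a cysteine near the carboxyl end, within a short run of residues that is alike across the superfamily.

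The 38 genes fell into 15 families. Family 2 held 12 genes, family 4 held 6, families 1, 3 and 19 held 3 each, family 27 held 2, and the other 9 families held 1 each. They lay on 11 chromosomes, 26 on the plus strand and 12 on the minus strand. The coding transcript with the longest coding sequence was a curated RefSeq record in 23 genes and a computed prediction in 15. Every coding sequence was a whole number of codons without an inner stop. In 5 members the model skips stretches of 2 genome bases, so for them this describes the model and not the genome. An ATG start and a stop were found in 37, and CYP2B22 lacked the ATG.

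The heme-binding run was searched in the translated coding sequences as phenylalanine, any 2 residues, glycine, any 3 residues, cysteine, any residue, and glycine or alanine. It was present once in 36 of 38 members, and the cysteine lay 52 to 73 residues before the carboxyl end. The 30 bases that encode it are shown for members that share the run and for relatives that differ from them, read 5′ to 3′ on the coding strand from the RefSeq genome (Sscrofa11.1), with the codon of the heme-binding cysteine in capitals.
CYP1A1 (chr7:58807770-58807799, plus strand): ttcggcttgggcaagcggaagTGCatcggt
CYP1A2 (chr7:58780063-58780092, minus strand): ttcggcatgggcaagcgccggTGCataggg
CYP1B1 (chr3:102202206-102202235, plus strand): ttctcagtgggcaaacggcggTGCatcggg
CYP2C32 (chr14:106469670-106472702, plus strand, across an intron): ttctcaacaggaaaacgaattTGTgtggga
CYP2C36 (chr14:106215926-106219106, plus strand, across an intron): ttctcaacaggaaaacgagttTGTgtggga
CYP2C42 (chr14:106699147-106701320, plus strand, across an intron): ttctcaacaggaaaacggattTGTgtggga
CYP2C33 (chr14:111269353-111270656, minus strand, across an intron): ttctccattgggaaacgggccTGTgctgga
CYP3A29 (chr3:6774165-6774194, plus strand): tttgggactggaccccgcaacTGCattggc
CYP4A21 (chr6:164711060-164714632, plus strand, across an intron): ttctcaggaggatccaggaacTGCattggg
CYP4B1 (chr6:164718731-164719178, minus strand, across an intron): ttctctgctgggcccaggaacTGCatcggg
CYP19A1 (chr1:120626632-120626661, plus strand): tttggctttgggccccgggccTGTgcggga
CYP27A1 (chr15:120851635-120851664, plus strand): tttggctacggggtccggggtTGCctgggc

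Identical heme codons were found in 4 sets of genes. CYP2C34 and CYP2C49 carried the 30 bases shown for CYP2C32, CYP3A22 and CYP3A46 those of CYP3A29, CYP4A24 those of CYP4A21, and CYP19A2 and CYP19A3 those of CYP19A1. Within subfamily 2C, CYP2C36 and CYP2C42 each differed from CYP2C32 at 1 base, whereas CYP2C33, which lies apart from the others, differed at 10. CYP1A1 and CYP1A2 differed at 6 bases, and CYP1B1 differed from them at 8 and 7. An intron divided the run in all 12 members of family 2, after base 10 in each, and in all 6 members of family 4, after base 17 in CYP4A21, CYP4A24, CYP4B1, CYP4F2 and CYP4F55 and after base 28 in CYP4V2. In the other 18 members with the run it lay within a single exon. The cysteine was encoded by the last coding exon in 26 members and by the exon before it in 8. It was encoded by exon 8 of 10 in CYP27B1 and by exon 10 of 12 in CYP39A1. In CYP4B1, counted among the 8, and in CYP27B1 the model skips 2 genome bases right after that exon. With exons joined there, the cysteine falls in the last coding exon of CYP4B1 and in the exon before the last of CYP27B1. The 2 genes without the run were CYP8B1, the sterol 12-alpha-hydroxylase that sets the balance of bile acids, and CYP20A1, an orphan P450 of unknown substrate. With the phenylalanine left free, CYP8B1 had a match with its cysteine at residue 440, 61 residues before the end, and CYP20A1 had none. With only the glycine and cysteine required, CYP20A1 had 1 match, with the cysteine at residue 409.

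Most P450 genes were alike in coding length. The median coding sequence, stop codon included, was 1510.5 bases (interquartile range, 1485.75 to 1549.5), and 31 of 38 members lay between 1400 and 1600 bases. The share of all protein-coding genes within these bounds was not computed. Over all protein-coding genes the median was 1221 bases (interquartile range, 852 to 2013). The extremes were CYP2B22, marked partial, with 1314 bases and CYP21A2, the steroid 21-hydroxylase of the adrenal cortex, with 1785 bases. The latter was a predicted transcript, and the curated transcript of CYP21A2 had 1479 bases. The number of coding exons varied more, with a median of 9 in the members and 7 over all protein-coding genes, and a range from 1 in CYP8B1 to 16 in CYP3A46. CYP8B1 was the 1 member of 38 with a single coding exon, against 13.7% of all protein-coding genes.

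**Figure D1:**
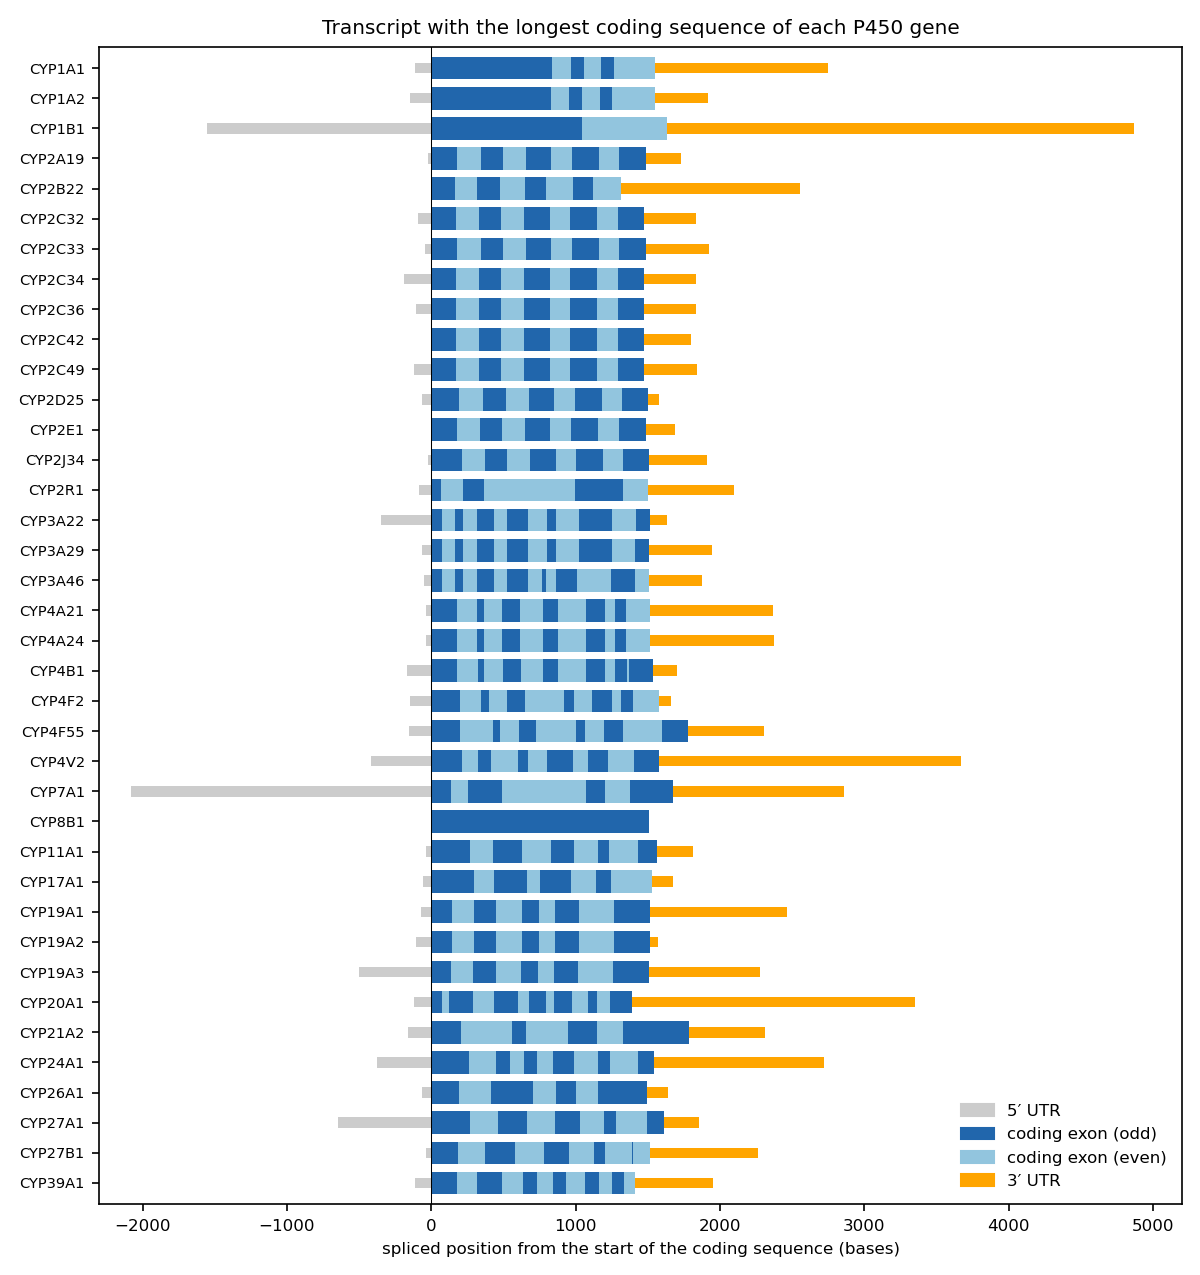
Spliced transcript with the longest coding sequence of each of the 38 genes. The x axis gives bases from the start of the coding sequence, gray bars are 5′ UTRs, alternating blues are successive coding exons and orange bars are 3′ UTRs. Coding sequences end between 1314 and 1785 bases, while the 3′ UTR drawn runs from 0 bases in CYP8B1 to 3236 in CYP1B1.

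The enzymes of family 1 are induced through the aryl hydrocarbon receptor and oxidize polycyclic aromatic compounds. CYP1A1 and CYP1A2 had the same plan of 6 coding exons and 1551 coding bases. Their first coding exons were long, 837 and 831 bases, and the next ones were 127 and 121, 90 and 90, 124 and 124, 87 and 87, and 286 and 298 bases. CYP1B1, which also hydroxylates estradiol, had 2 coding exons of 1043 and 589 bases and 1632 coding bases in all. Its gene (ID 100625479, chr3:102195743-102205687, plus strand) had been named LOC100625479 in RefSeq, and its exons were those of RefSeq.

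Family 2, the largest, includes CYP2A19 and CYP2E1, which act on small molecules such as ethanol (CYP2E1), the subfamily 2C enzymes of drug metabolism, CYP2D25, known as a vitamin D 25-hydroxylase of the pig, CYP2J34, whose human relative forms epoxides of arachidonic acid, and CYP2R1, the main vitamin D 25-hydroxylase of the liver. Its gene plan was uniform in most members. There were 9 coding exons in 10 of 12 members, and all 10 had the same order of intron phases, the place within a codon where each intron falls. CYP2B22 had 8 coding exons, which matched exons 2 to 9 of the others and left it without a first coding exon, a 5′ UTR or an ATG, and it was marked partial. In these 11 genes, exons 4, 5, 6 and 7 were 161, 177, 142 and 188 bases long without exception. Exon 3 was 150 bases in 10 of 11 (153 in CYP2D25), exon 8 was 142 bases in 10 of 11 (139 in CYP2J34), and exon 2 was 163 bases in 9 of 11. The first coding exon varied from 168 bases, shared by 5 of the 2C genes, to 210 in CYP2J34, and the last from 179 to 191. CYP2R1 stood apart with 6 coding exons of 67, 155, 142, 633, 330 and 176 bases.

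The 6 genes of subfamily 2C were close in size. CYP2C32, CYP2C34, CYP2C36, CYP2C42 and CYP2C49 each had 1473 coding bases in exons of the same lengths, and CYP2C33 had 1485. The encoded proteins of CYP2C32 and CYP2C49 differed at 18 of 490 aligned residues (96.3% identity), the closest pair among the members. CYP2C34 was 93.7% and 91.8% identical to CYP2C49 and CYP2C32, CYP2C36 was 90.8% identical to CYP2C34, and CYP2C42 was 79.8% to 82.2% identical to the 4. CYP2C33 was the outlying member, at 60.2% to 63.2% identity to the other 2C proteins, beside the 58.8% between CYP2A19 and CYP2B22, which belong to different subfamilies.

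Family 3, whose human relatives oxidize a wide range of drugs and steroids, had the highest median number of coding exons as annotated (15). CYP3A22, CYP3A29 and CYP3A46 had 13, 15 and 16, with 1512, 1506 and 1506 coding bases. Their first 7 coding exons were 71, 94, 53, 100, 114, 89 and 149 bases in all 3 genes. Introns of 2 bp, too short to be spliced as known introns are, accounted for part of the difference. In CYP3A29 a pair of them divided a stretch into exons of 11, 1 and 145 bases, and CYP3A46 also held 2. Joining exons across them left 13, 13 and 14 coding exons, beside 13 in CYP20A1 of family 20. CYP3A46 kept an exon of 2 bases between longer introns. Such short introns (under 30 bp) were present in 5 of 38 members, against 11.3% of all protein-coding genes. The others were CYP2R1, CYP4B1 and CYP27B1 with 1 each, and all 7 were 2 bp long.

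Family 4 enzymes hydroxylate the ends of fatty acids and eicosanoids. CYP4A24 and CYP4A21, the latter known in the pig as the enzyme that makes hyocholic acid, had 12 coding exons of identical lengths and 1515 coding bases. CYP4B1, an enzyme known for its activity in lung, shared 8 of these lengths (142, 45, 128, 125, 107, 191, 134 and 65 bases) in a coding sequence of 1533 bases. Its gene (ID 100523909, chr6:164718393-164737693, minus strand) was the other member renamed by the authors, from LOC100523909, again with the exons of RefSeq. CYP4F2, whose human form metabolizes leukotriene B4 and vitamin K, had 12 coding exons and 1575 coding bases. CYP4F55 had 15 coding transcripts, the most of any member, with coding sequences of 1332 to 1776 bases. Its curated transcript had 12 coding exons and 1575 bases, as in CYP4F2, and the longest predicted one had 11 exons, among them 1 of 226 bases where CYP4F2 has 145. CYP4V2, a fatty acid hydroxylase of the retina, had 11 coding exons and 1575 coding bases.

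The steroid-forming enzymes had 7 to 9 coding exons. CYP11A1, which cleaves the cholesterol side chain in mitochondria, had 9 coding exons and 1563 bases, and CYP17A1, which makes the precursors of cortisol and androgens, had 8 and 1530. Like CYP2B22, CYP17A1 was marked partial. CYP21A2 had 7 coding transcripts whose coding sequences ran from 1479 bases in 10 coding exons, in the curated transcript, to 1785 bases in 7 coding exons, in a prediction. The curated transcript had no UTR at either end, and the 6 predicted ones each had a 3′ UTR of 529 bases. The pig is known for having several aromatase genes, which make estrogens, and CYP19A1, CYP19A2 and CYP19A3 had 9 coding exons each. Coding exons 2 to 9 were of identical lengths in the 3 genes (151, 155, 177, 115, 115, 163, 242 and 249 bases), and the first was 145, 145 and 139 bases. CYP19A1 and CYP19A2 were 92.8% identical in amino acid sequence, and CYP19A3 was 88% and 87.2% identical to them.

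Among the enzymes of bile acid and cholesterol metabolism, CYP7A1, the rate-limiting enzyme of bile acid synthesis, had 7 coding exons and 1677 coding bases in a predicted transcript and 6 coding exons and 1506 bases in the other 4, the curated one included. CYP8B1 had the same coding length, 1506 bases, in its 1 exon, and its closest relative among the members was CYP7A1, at 41.4% identity. This was the highest identity between members of different families. CYP27A1, the mitochondrial sterol 27-hydroxylase, had 9 coding exons and 1614 bases, and CYP39A1, an oxysterol 7-alpha-hydroxylase, had 12 and 1410. Of the vitamin D enzymes, CYP27B1, which makes the active hormone, had 10 coding exons and 1512 bases, and CYP24A1, which inactivates it, had 11 and 1545. CYP27A1 and CYP27B1 were 44.4% identical. CYP26A1, which clears retinoic acid, had 7 coding exons and 1494 bases, and CYP20A1 had 13 and 1389.

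Family numbers followed sequence identity without overlap at the subfamily level. The 24 pairs of the same subfamily had a median identity of 82.1% (range, 60.2 to 96.3), the 67 pairs of the same family but different subfamilies 43.6% (range, 32.8 to 58.8), and the 612 pairs from different families 29.6% (range, 22.8 to 41.4). Pairs of the same family in different subfamilies thus overlapped in range with pairs of different families. P450 names were given on the basis of such identities, so the agreement is a description of the naming.

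**Figure D2:**
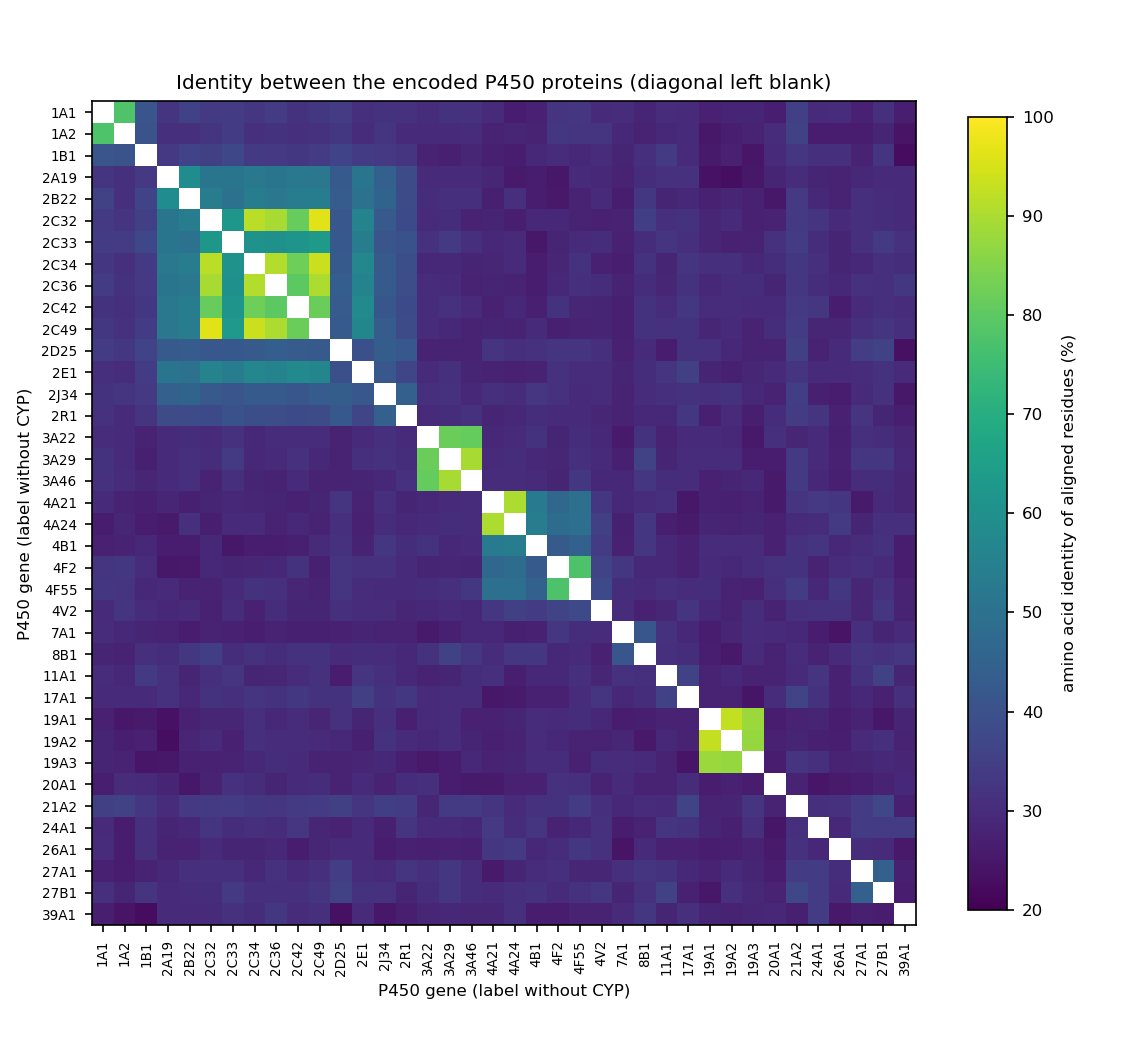
Amino acid identity between the encoded proteins for all pairs of the 38 members, which are ordered by family along both axes, with color giving the percent of aligned residues that are identical and the diagonal left blank. The bright blocks are subfamilies 1A, 2C, 3A, 4A, 4F and 19A, the CYP2C33 row is darker within the 2C block, and the brightest square is the CYP2C32 and CYP2C49 pair at 96.3%.

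In 3′ sequencing the reads lie near the ends of transcripts, so the 3′ UTR of the model bears on which reads are counted. Most of the named members had short ones. Their median 3′ UTR, taken from the coding transcript with the most distal 3′ end, was 384.5 bases (interquartile range, 239.5 to 855.5). The median was 715 bases over all protein-coding genes and 905 over the other protein-coding genes with a name. In the 35 P450 genes known only by a LOC number it was 674 bases. The 3′ UTR exceeded the median of all protein-coding genes in 12 of 38 members. By role, the median was 364.5 bases in the 18 genes of families 1 to 3, 690 in the 6 of family 4, 390.5 in the 6 steroid-forming genes and 389 in the 4 of bile acid and cholesterol metabolism. Of the vitamin D genes, CYP2R1 (also counted in families 1 to 3), CYP24A1 and CYP27B1 had 591, 1178 and 1618 bases. CYP2D25, a vitamin D 25-hydroxylase counted here only in families 1 to 3, had 73.

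The longest 3′ UTRs belonged to CYP1B1 with 3236 bases, CYP4V2 with 2095, CYP20A1 with 1960, CYP27B1 with 1618 and CYP2B22 with 1241. The value of CYP27B1 came from a predicted transcript, and its curated transcript had 749. Subfamily 2C was uniform, from 327 bases in CYP2C42 through 362 to 366 in CYP2C32, CYP2C34, CYP2C36 and CYP2C49 to 440 in CYP2C33. Within family 1 the 3 genes differed widely, with 363 bases in CYP1A2, 1194 in CYP1A1 and 3236 in CYP1B1. The 3A genes had 123 (CYP3A22), 368 (CYP3A46) and 436 bases (CYP3A29), and CYP4A21 and CYP4A24 had 851 and 857.

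**Figure D3:**
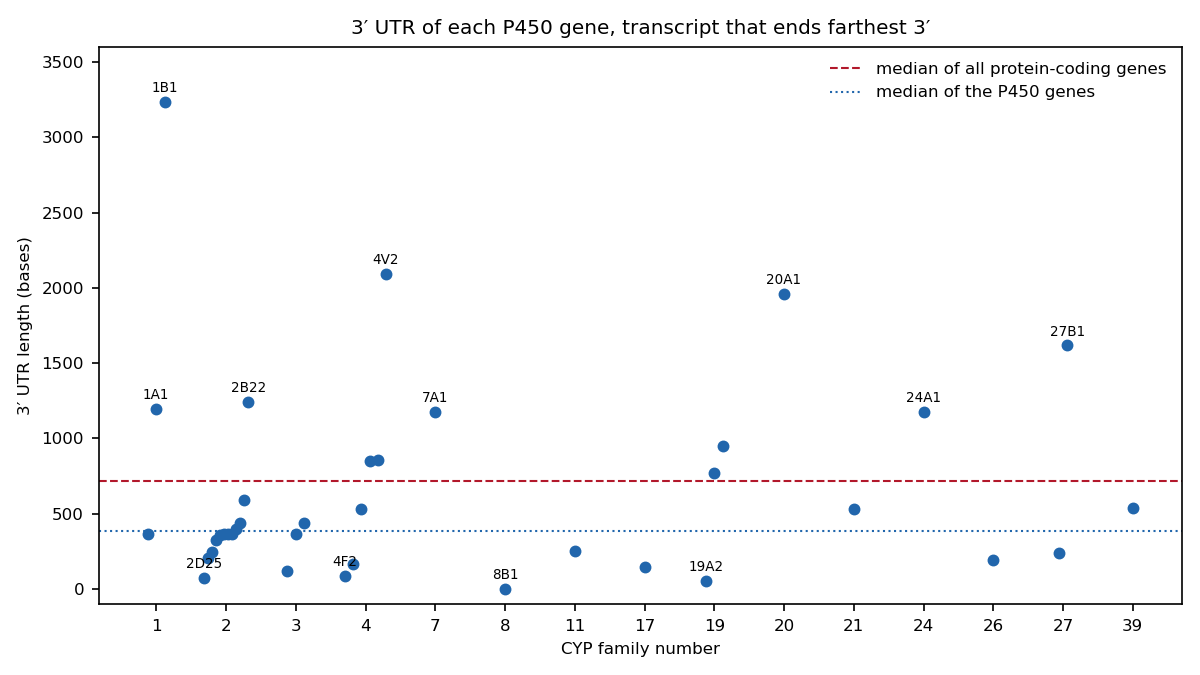
3′ UTR length in bases (y axis) of each member by CYP family number (x axis), 1 point per gene, for the coding transcript with the most distal 3′ end. Points above 1000 or below 100 bases carry the gene name without CYP, and lines mark the medians of all protein-coding genes (715, dashed) and of the members (384.5, dotted).

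A 3′ UTR was absent from 1 of 38 members, CYP8B1, against 8.88% of all protein-coding genes. It was under 100 bases in 4 of 38, against 15.8%, so short ends were not more frequent among the members than over all genes. The other 3 were CYP19A2 with 55 bases, CYP2D25 with 73 and CYP4F2 with 87. A 5′ UTR was absent from 3 of 38 members, CYP2B22, CYP2C42 and CYP8B1, against 11.8%, and the median 5′ UTR was 98.5 bases beside 183 over all protein-coding genes, both in the transcript with the longest coding sequence. In those transcripts the longest was that of CYP7A1, at 2082 bases in a predicted transcript, and its curated transcript had 373. Other predicted transcripts had longer ones, of 8493 bases in CYP4V2 and 2265 in CYP26A1.

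A poly(A) signal, AATAAA or ATTAAA on the transcript's strand, stood within the last 50 bases of the transcript end in 27 of 38 members, against 60.9% of all protein-coding genes. The 11 without it were CYP1A2, CYP2A19, CYP2J34, CYP4A21, CYP4A24, CYP4B1, CYP8B1, CYP17A1, CYP19A2, CYP24A1 and CYP39A1. This says only that these letters are not in that window.

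More than 1 coding transcript was listed for 15 of 38 members, against 48.9% of all protein-coding genes, and in 13 of the 15 the 3′ UTR differed among them. The share with such a difference was not computed over all protein-coding genes. Some differences were of a few bases, as in CYP11A1 (251 to 252), CYP4F55 (528 to 529), CYP2E1 (202 to 204), CYP2C33 (437 to 440) and CYP7A1 (1172 to 1179). In others, the curated transcript stopped at or near the stop codon and a predicted one went farther. The 3′ UTR of CYP1A2 was 0 bases in the curated transcript and 363 in the predicted one, that of CYP19A3 was 4 and 773, that of CYP3A22 53 and 123, and that of CYP21A2 0 and 529.

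None of the members was among the genes whose ends the authors moved. All 38 had exactly the exons of RefSeq, whereas 249 of 20674 protein-coding genes (1.2%) did not, 13 of these being mitochondrial genes. No member shared exon bases with another gene on the same strand, against 3.36% of protein-coding genes. On the opposite strand, exons overlapped in 3 of 38 members, against 17.1% of protein-coding genes. CYP7A1 shared 369 exon bases with SDCBP, which encodes the scaffold protein syntenin, CYP21A2 shared 299 with TNXB, which encodes the matrix protein tenascin-X, and CYP17A1 shared 139 with BORCS7, which encodes a lysosome-positioning subunit. CYP8B1 lay whole within the span of ZNF662 on the opposite strand and shared no exon base with it.

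Many of the members lay in clusters, but the share was not computed for other gene families, so whether it is usual is unknown. With members linked when at most 500 kb apart, 21 of 38 lay in 7 clusters and 17 stood alone. The largest was on chromosome 14 (106184665 to 106701809), where CYP2C36, CYP2C34, CYP2C32, CYP2C49 and CYP2C42 followed each other on the plus strand over 517 kb, with gaps of 54.4 to 110 kb. The aromatase genes CYP19A3, CYP19A1 and CYP19A2 lay on the plus strand of chromosome 1 (120476890 to 120695899) over 219 kb, with no other protein-coding gene between them. CYP3A22, CYP3A46 and CYP3A29 did the same on chromosome 3 (6617256 to 6778121) over 161 kb. On chromosome 6, CYP2A19 and CYP2B22 shared the minus strand over 117 kb (49056579 to 49173872), and CYP4A24, CYP4A21 and CYP4B1 spanned 241 kb (164496928 to 164737693). CYP4B1 pointed toward CYP4A21, so that the 3′ ends of the 2 genes were 2753 bp apart. CYP4F2 and CYP4F55 lay 292 kb apart on the minus strand of chromosome 2 (61745069 to 62071003).

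The cluster on chromosome 7 (58779529 to 59188479, 409 kb) was the only one of the 7 to hold different families. CYP1A2 and CYP1A1 stood head to head, their 5′ ends 16.7 kb apart, and CYP11A1 lay 364 kb beyond CYP1A1, with 6 genes that are not P450s between them (EDC3, CLK3, ARID3B, LOC100525054, UBL7 and SEMA7A). P450 genes known only by a LOC number (P450s by their product names) lay between CYP4F2 and CYP4F55 (5), between CYP2A19 and CYP2B22 (2), between CYP4A24 and CYP4A21 (2) and between CYP2C32 and CYP2C49 (1). Outside the chromosome 7 cluster, the only protein-coding gene between members that is not a P450 was LOC102166602. It lay on the minus strand between CYP2C49 and CYP2C42.

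**Figure D4:**
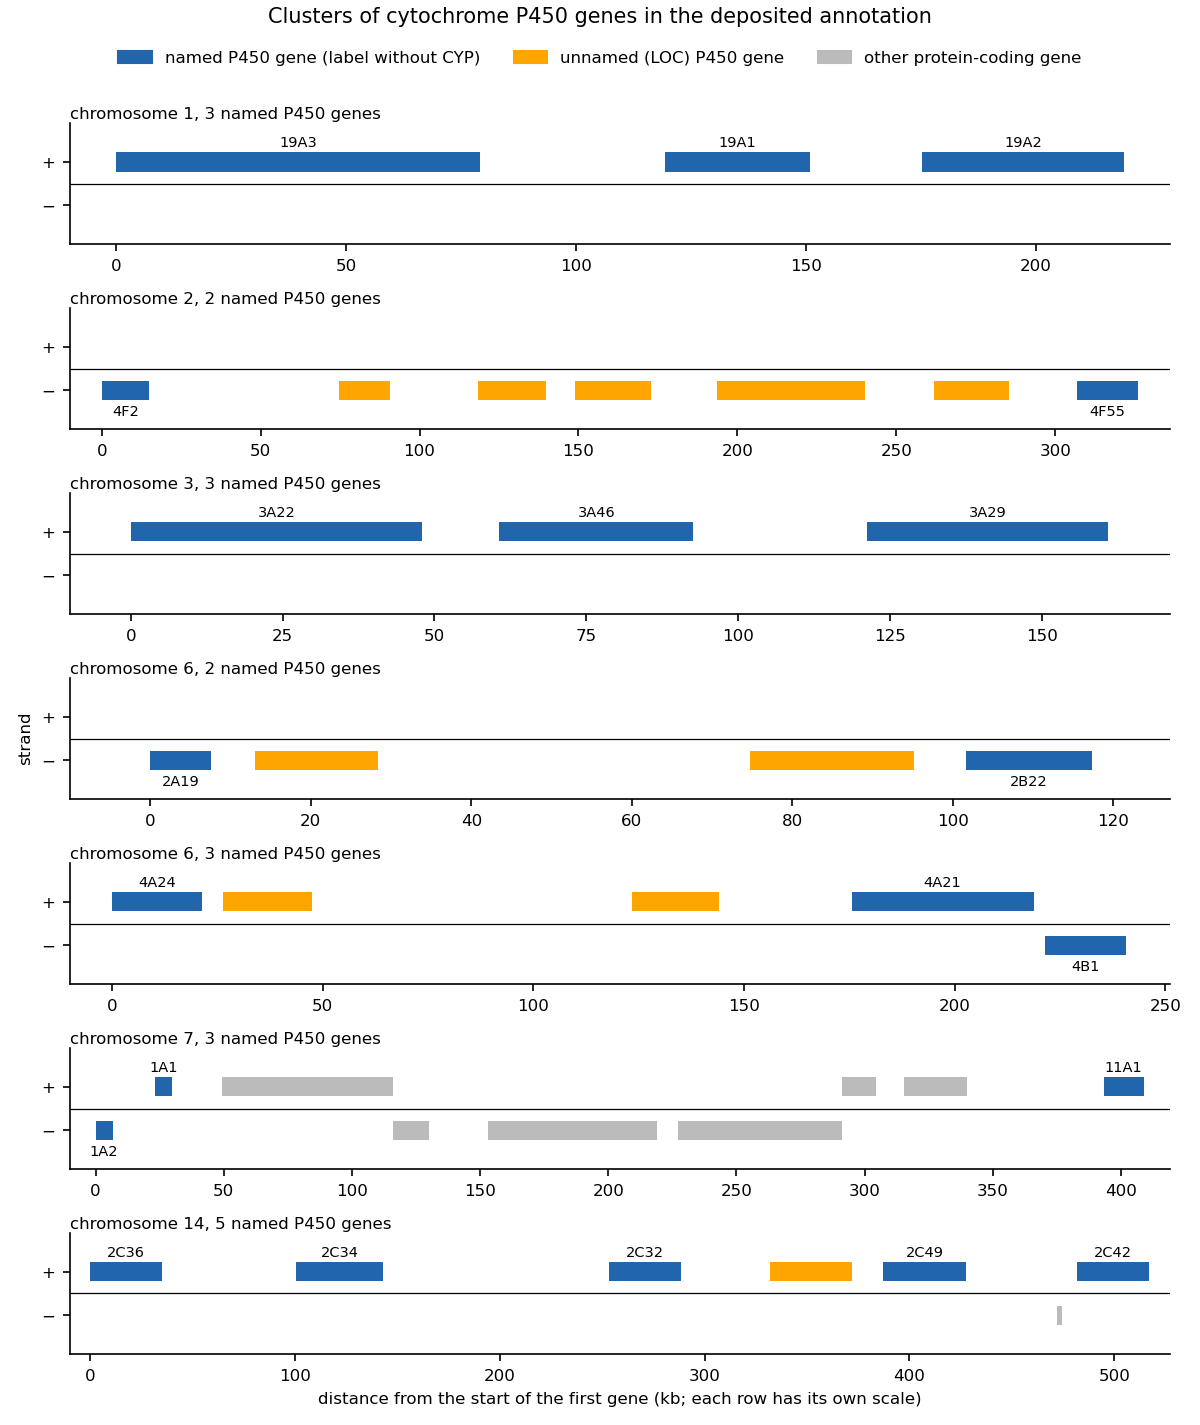
The 7 clusters of members, each on its own scale in kb from the start of its first gene, with plus-strand genes above and minus-strand genes below the line. Named P450 genes are blue, P450 genes known only by a LOC number are orange and other protein-coding genes are gray. Runs of P450 genes on 1 strand appear in the clusters of chromosomes 1, 2, 3 and 14 and in the 117 kb cluster of chromosome 6. Gray genes fill the gap between CYP1A1 and CYP11A1, and 1 gray minus-strand gene lies between CYP2C49 and CYP2C42.

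The members standing alone were CYP1B1, CYP2C33, CYP2D25, CYP2E1, CYP2J34, CYP2R1, CYP4V2, CYP7A1, CYP8B1, CYP17A1, CYP20A1, CYP21A2, CYP24A1, CYP26A1, CYP27A1, CYP27B1 and CYP39A1. CYP2C33 (chr14:111268751-111301748, minus strand) was on the same chromosome as the other 2C genes but on the other strand, and its nearest member was CYP17A1, 2.5 Mb away. CYP2C33, CYP2J34 and CYP26A1 had a LOC P450 gene within 10 kb, at 6.11, 6.26 and 2.42 kb. CYP8B1 (chr13:26330233-26331738, minus strand) and CYP24A1 (chr17:55110546-55130328, minus strand) had no other member and no LOC P450 gene on their chromosomes, although PTGIS, the P450 that makes prostacyclin, is also on chromosome 17. Gene spans ran from 1506 bp in CYP8B1 to 80844 bp in CYP39A1, with a median of 24414.5 bp beside 19162.5 over all protein-coding genes. CYP19A3 had the longest intron, 47860 bp, and CYP21A2 fitted 7 coding exons into 3227 bp with no intron over 253 bp.

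Because close relatives can share sequence at their 3′ ends, each word of 90 bases within an exon in the last 500 exon bases of the member was looked up in the whole genome on both strands. Of 14327 such words, 1860 occurred again elsewhere. They came from 12 members, and the other 26 had none. The search was not run over all protein-coding genes, so whether such shares are usual in the annotation is unknown. In 4 members more than 50% of the words were repeated. All 411 words of CYP2C33 (100%) occurred again in an exon of LOC100739741, the neighboring gene 6.11 kb downstream. In CYP4F55 the share was 91%, with 79.3% of the words in LOC102167481 and 34.5% in LOC100739101, its neighbors in the cluster. In CYP19A2 it was 78.3%, all of these in an exon of CYP19A1 and 18.6% also in CYP19A3. In CYP2B22 it was 60.1%, in LOC102165015, whose product is named as a cytochrome P450 2B4-like protein.

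Smaller shares were found in CYP4A24 (47.9%), CYP4A21 (33.6%), CYP2C36 (26.8%), CYP3A22 (17.2%) and CYP2J34 (16.5%). The words of CYP4A24 and CYP2C36 lay mainly in LOC genes of the same subfamily nearby, those of CYP3A22 in CYP3A46, and 26.8% of the words of CYP4A21 lay again in an intron of CYP4A21 itself. CYP19A1 had 4.14%, and CYP2C34 and CYP2C49 had 0.73% each, in each other. CYP2C32 and CYP2C49, the closest pair, shared no word of 90 bases in these ends. The relation was also not mutual in the aromatase genes, since the 3′ UTR of CYP19A1 continued for 950 bases while that of CYP19A2 stopped after 55, so the last 500 bases of CYP19A1 lay beyond the shared stretch. For the members with repeated ends, reads from such a stretch match more than 1 place in the genome, and their counts in a 3′ library would be uncertain.

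**Figure D5:**
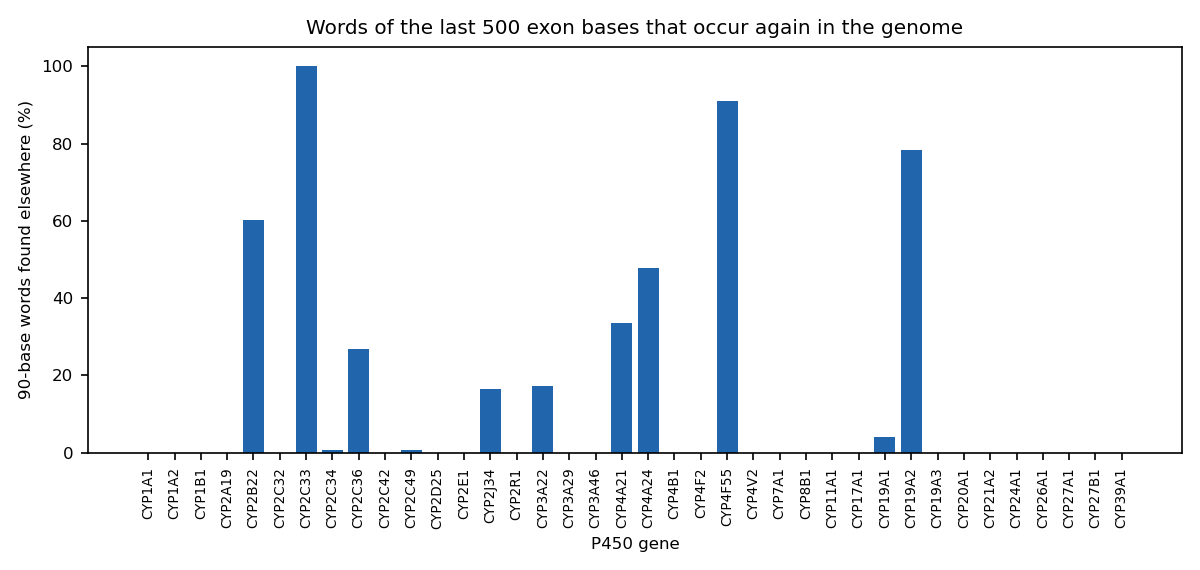
Percent of the 90-base words in the last 500 exon bases of each member that occur again in the genome (y axis), by gene (x axis). CYP2C33 (100%), CYP4F55 (91%), CYP19A2 (78.3%) and CYP2B22 (60.1%) stand highest, and 26 members are at 0.

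Beyond the enzymes, 16 of 18 listed partners, regulators and P450s of other names had a gene model under the listed symbol, and all 16 had the exons of RefSeq. The 5 electron donors had a median 3′ UTR of 356 bases, from 94 in FDX1, the ferredoxin of the mitochondrial enzymes, through 356 in POR, the P450 reductase, to 1244 in CYB5A, cytochrome b5. The 8 nuclear receptors and other regulators had a median of 2175 bases, with 128 in NR1I3 (the receptor CAR), 1375 in NR1I2 (the receptor PXR), 2402 in AHR, the aryl hydrocarbon receptor, and 2492 in VDR, the vitamin D receptor. A poly(A) signal stood at the end of 4 of the 5 donors and 6 of the 8 regulators. ARNT, the partner of AHR, shared 554 exon bases with a gene on the same strand, and the other 15 shared none.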

How the data were processed

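3′ scRNA-seq libraries (10x Chromium, v2 chemistry) were made from the glands and surrounding tissue of 4 wild-type and 4 CFTR-/- newborn pigs. The values used are the 1-based Sscrofa11.1 coordinates in the annotation deposited by the authors. They had taken NCBI Annotation Release 106, extended 3′ ends, trimmed models that overlapped, and changed, added or removed gene names and genes. Reads were counted on it with Cell Ranger (version 3.0.2, per the submitters' processing notes). No count matrix was analysed here, and depth per library is unknown.

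Coding exons, coding length and the 5′ UTR came from the transcript with the longest coding sequence, and the 3′ UTR from the coding transcript that ends farthest 3′. The models were compared with RefSeq Release 106 on the same build. Proteins were translated from the genome sequence and aligned globally (BLOSUM62, gap opening 10, extension 0.5, end gaps free), and identity was counted over aligned residue pairs. No test across samples was possible, so members are set beside all protein-coding genes as a description. The members and lists were chosen with earlier results of these data known. Genes named with values are those of families with under 4 members, the extremes of larger families, cluster members, genes with a 3′ UTR under 100 bases, the 5 longest 3′ UTRs, genes that differ from RefSeq or lack the heme run, CYP1B1 and CYP4B1. The remaining members of families 2 and 4 were named after their values were seen. The search for repeated words, the identities, the relaxed heme search and the joining of exons were added after seeing the data. The measures were tested on simulated data, with all 505 checks passed. The tools were Python 3.11.15, numpy 2.4.6, pysam 0.24.0, Biopython 1.88 and matplotlib 3.10.9.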

Additional observations from a re-analysis of the deposited data

How the results depend on the processing

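No paired analysis was possible because a single annotation served all 8 libraries. With the median over the coding transcripts of each gene, the median coding length was 1506 bases (1510.5 in the report) and the median 3′ UTR 378.25 bases (384.5). With the transcript that starts farthest 5′, the median 5′ UTR was 119.5 bases (98.5). A bound of 200 bases in place of 100 raised the members with a short 3′ UTR from 4 to 8. Counting exons alone, and not names, left 0 members that differ from RefSeq in place of 2, a choice made after seeing the data. The count in clusters was 17 at a gap of at most 100 kb, 21 at 1000 kb and 24 with LOC P450 genes counted, against 21. AATAAA alone was found in 21 members in place of 27. Members with more than 10% repeated words numbered 12 with words of 60 bases, 9 with 90 and 7 with 120, the other lengths being chosen after seeing the data, and CYP2C33 stayed at 100% in all 3. Reads, their mapping and the depth that would set the precision of expression were not analysed here.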

Other observations

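A further 35 protein-coding genes that are P450s by their product names had only a LOC number, against 38 named members, and 10 of them lay inside the clusters of members. Their median coding length was 1521 bases, their median number of coding exons 9 and their median 3′ UTR 674 bases, with 3 coding exons in the shortest model (LOC110256857, 489 coding bases, named as 2C9-like). Their product names include P450s of subfamilies that no member belongs to, among them 2F, 2G, 2S, 2W, 4X, 11B, 26B, 26C and 27C. LOC106510546 (2S1) had 9 coding exons and a 3′ UTR of 1192 bases, LOC100523190 (2F3) 9 and 2395, and LOC100739552 (26C1), next to CYP26A1, 6 and 0.

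With LOC P450 genes counted, the clusters numbered 10. The one around CYP4A24, CYP4A21 and CYP4B1 grew to 9 genes over 397 kb and the 2C cluster to 8 genes over 694 kb. CYP2J34 became the middle of 5 genes over 258 kb, the other 4 being LOC genes with 2J2 products. CYP51, the lanosterol demethylase of cholesterol synthesis, is protein-coding but has no subfamily letter in its name, so it was not counted as a member. It had 10 coding exons, 1512 coding bases and a 3′ UTR of 760 bases. CYP2C91, a transcribed pseudogene, overlapped the span of CYP2C42 on the opposite strand by 5113 bp and shared no exon base with it.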
